A study of Homo sapiens with 8 samples.

Results

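RNAs pulled down with an antibody to ribosomal protein S6 (RPS6) were compared with the RNA of the matching lysate in 4 cancer cell lines, and the question asked here was how far the ratio of pull-down to lysate agreed between the lines and for which genes it differed most. Genes were kept when their deposited count was at least 50 in all 4 inputs, which left 11518 of 57756 genes (19.9%). Most of them, 10348, were protein-coding by RefSeq symbol. For each kept gene and line, the ratio is log2((RIP FPKM + 1)/(input FPKM + 1)) minus the median of that line, so that 0 stands for the middle gene of a line, and a difference of 1 stands for 2-fold. FPKM is fragments per kilobase of transcript and per 1000000 mapped fragments. The spread of a gene is its highest minus its lowest line. The 100 genes with the widest spread, from 2.71 to 7.44, are described below, and because they were chosen by their ratios, their ratios and spreads are descriptions without a test.

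RNA immunoprecipitation (RIP) keeps the RNAs that stay bound to a protein in a cell lysate. The 8 libraries are 1 RIP and 1 input library each of Hep3B (hepatocellular carcinoma), HCT116 (colon cancer), DU145 (prostate cancer), and SW1990 (pancreatic cancer) cells, all untreated as far as the labels say, with the input being an aliquot of the lysate taken before the pull-down. The titles name the liver pair 3B and the study names Hep3B, whereas their cell line field reads Huh7, and the pair is called Hep3B here. No line had a second RIP or input library, so the spread of a gene holds the difference between lines, pull-downs, and library preparations, and these cannot be told apart.

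RPS6 is a protein of the small ribosomal subunit and a substrate of the kinases below mTOR. An antibody to it can bring down whole ribosomes with the mRNAs on them, and long coding sequences can carry many ribosomes at once. RNAs that work in the nucleus, the nucleolus, or the mitochondrion have no stable place on cytoplasmic ribosomes, and mRNAs of ribosomal proteins move on and off ribosomes with growth signals through a pyrimidine-rich start of the transcript.

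Input libraries held 35796157 to 54209596 fragments and RIP libraries 34630376 to 42610080. All 10 liver cell markers were at 1 FPKM or more in the Hep3B input, with a sum of 16704 FPKM, whereas the sum was 1.56 to 17.1 FPKM in the other inputs. Other labels had less support among markers. Of 10 intestinal epithelial markers, 2 reached 1 FPKM in the HCT116 input and 6 in the SW1990 input, where CDX2 stood at 86.6 FPKM against 6.25 FPKM in HCT116 and ASCL2 at 153 FPKM against 0. Lines are named as the labels give them. Whether the labels of HCT116 and SW1990 belong to these libraries was not tested, and every value of these 2 lines rests on it. KLK2 and KLK3, which mark prostate epithelium, were listed at 0 in the DU145 input. Of 10 pancreatic duct tumor markers, 5 reached 1 FPKM in SW1990 and 4 each in HCT116 and DU145, and the part of these differences in the ratios was not tested. HCT116 and Hep3B were deposited in one table and DU145 and SW1990 in the other, and FPKM levels set across the 2 tables rest on separate normalizations, whereas each ratio is taken within a table.

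The ratios of the 4 lines ran together over most genes. Pearson's r across the 11518 genes was 0.881 between HCT116 and DU145, 0.871 between DU145 and SW1990, and 0.861 between HCT116 and SW1990. It was lower for each pair with Hep3B, at 0.851 with DU145, 0.830 with SW1990, and 0.799 with HCT116. The median of the 6 pairs was 0.856, and Spearman's rho ran from 0.795 to 0.882. Genes are not independent replicates, the 3 pairs that hold one line share its 2 libraries, and all ratios share gene length and the same gene models, so these correlations describe the libraries only. A first component held 88.9% of the variance of the ratios and the second 4.65%. The sign was the same in all 4 lines for 8192 genes (71.1%), of which 4122 were above the line's median and 4070 below it.

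**Figure D1:**
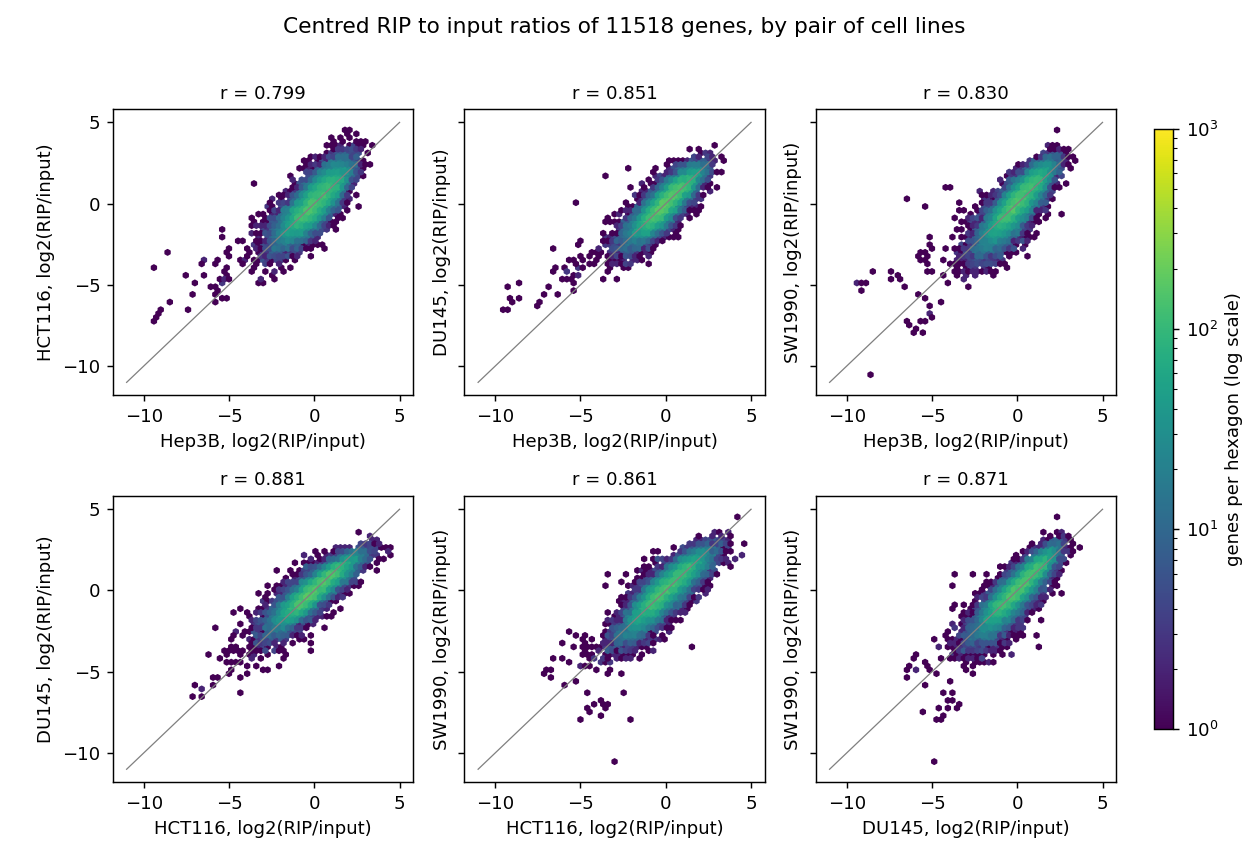
Each panel plots the centred log2 ratio of RIP to input in one line against another for 11518 genes, with the color of a hexagon giving the number of genes on a log scale and the grey line marking equality. The cloud follows the line in every panel, and r runs from 0.799 to 0.881. Genes far from the line include some at strongly negative ratios and some at positive ones, such as PRKDC, at 4.09 in HCT116 and 0.92 in Hep3B.

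The lines differed in how wide their ratios were. The standard deviation of the ratio over genes was 1.14 in Hep3B, 1.20 in DU145, 1.31 in HCT116, and 1.38 in SW1990, in log2 units. Set against the mean of the other lines, the slope was 0.794 in Hep3B, 0.918 in DU145, 0.994 in HCT116, and 1.08 in SW1990. Hep3B ratios were thus the most compressed and SW1990 ratios the most drawn out. The medians removed by centring were 0.28, 0.10, 0.12, and 0.16 in Hep3B, HCT116, DU145, and SW1990.

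The typical gene differed less than 2-fold between its highest and lowest line. The median spread was 0.90 (1.86-fold), the quartiles were 0.62 and 1.25, and 4775 genes (41.5%) had a spread of at least 2-fold. A spread of at least 4-fold was found for 489 genes (4.25%), at least 8-fold for 52, and at least 16-fold for 15. The pseudocount weighs on this count, which was 933 at 4-fold with 0.1 in place of 1 and 164 with 10. The count at 4-fold fell to 265 without Hep3B, 276 without HCT116, and 258 without SW1990, and was 387 without DU145. The counting error of a single ratio had a median of 0.06 and a 95th percentile of 0.22 in log2 units, well under these spreads, but counting error covers fragments only and no replicate of the pull-down exists to set beside it. Counts per 1000000 (CPM) were taken from deposited counts on library totals scaled by TMM, a normalization between libraries, with 1 added. In place of FPKM, they gave a median spread of 0.84, and 393 genes reached 4-fold. Of the 489 genes by FPKM and the 393 by CPM, 290 were shared, or 59.3% and 73.8% of each list, and 87 of the 100 widest genes reached 4-fold by counts too.

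Many of the 100 widest genes do not make ordinary mRNAs. Of the 13 mitochondrially encoded RNAs among the kept genes, 10 were among the 100 widest. So were 6 of 8 genes of 7SL RNA and its copies, 9 of 17 other small nuclear, nucleolar, and Cajal body RNAs (with RMRP, RPPH1, and RN7SK), and 7 of 46 histone cluster genes. Of 80 ribosomal protein genes, 3 were among the widest, against 33 of 10212 other protein-coding genes. SW1990 was the lowest line for 44 of the 100, Hep3B for 32, HCT116 for 19, and DU145 for 5, and over all kept genes these shares were 26.9%, 28.7%, 23.9%, and 20.5%. DU145 was the highest line for 32, HCT116 for 30, SW1990 for 23, and Hep3B for 15, against 18.3%, 29.2%, 25.1%, and 27.3% of all kept genes. The counts of SW1990 and DU145 were thus the ones farthest from those of all genes as lowest line, and those of DU145 and Hep3B as highest line.

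Of the 100 widest, 35 were listed with a locus of their own, near the 30.5% of all kept genes. This pooled share does not speak for single genes. Where genes overlap or have near-identical copies, the authors' software could split fragments between them. A RIP library held exactly 0 fragments for 2 of the 100, and an estimate of under 1 fragment for 8 of the 100, these 2 included. Among the 8 were RPL36A-HNRNPH2 and BLOC1S5-TXNDC5, at loci with 4 and 8 listed genes, and MT-ND3, with a locus of its own.

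**Figure D2:**
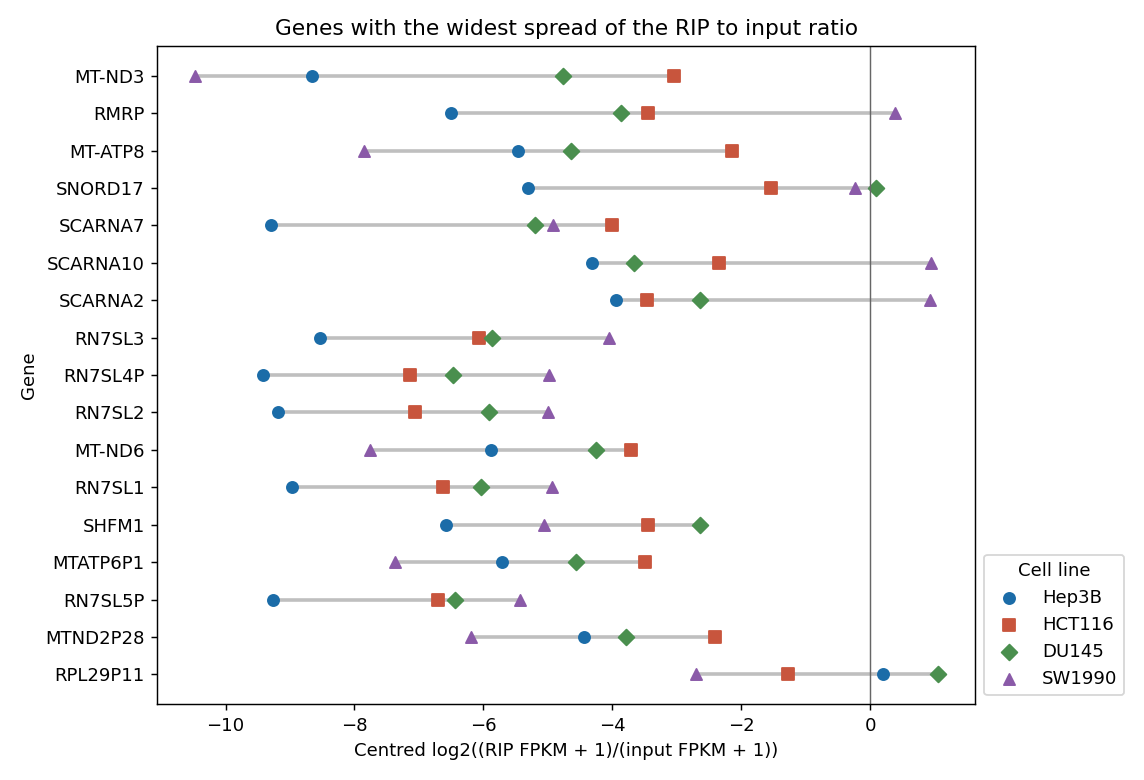
Centred log2 ratio of RIP to input in each line for 17 of the 20 genes with the widest spread, in order of the spread, with 1 point per line and a grey bar from the lowest to the highest line. The remaining 3 are listed under clone names and are left out. SW1990 holds the lowest point of the mitochondrial RNAs and the highest of RMRP, SCARNA10, SCARNA2, and the 7SL genes, whose lowest point is Hep3B.

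The small RNAs of the nucleus and nucleolus mostly varied more in level over the inputs than over the RIP libraries. RMRP (ENSG00000269900, hg19 chr9:35657748-35658015), the RNA part of the RNase MRP complex that cuts ribosomal RNA precursors, stood at 221096 FPKM in the Hep3B input, 34761 in HCT116, 9918 in DU145, and 2169 in SW1990. In the RIP libraries of the same lines it stood at 2952, 3410, 742, and 3160 FPKM. The input of Hep3B was thus far above the others and that of SW1990 the lowest, while the RIP levels of Hep3B, HCT116, and SW1990 were close. The ratios were -6.51, -3.45, -3.86, and 0.38, a spread of 6.89 (119-fold), which narrowed to 3.06 without SW1990 and 4.25 without Hep3B.

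RPPH1, the RNA of RNase P, which trims the start of transfer RNA precursors, had ratios of -7.34, -6.57, -6.00, and -4.12 in Hep3B, HCT116, DU145, and SW1990. RN7SK, which holds the elongation factor P-TEFb inactive in the nucleus, had ratios of -5.87, -6.09, -3.92, and -3.19. Both were below the median of every line and highest in SW1990, and their input levels ran from 195131 FPKM in Hep3B to 9592 FPKM in SW1990 for RPPH1 and from 256001 to 13829 FPKM for RN7SK. Both share the order of the inputs with RMRP.

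The Cajal body RNAs guide the modification of spliceosomal RNAs. SCARNA10 had ratios of -4.31, -2.34, -3.66, and 0.94 in the order Hep3B, HCT116, DU145, and SW1990, with input levels of 1359, 187, 1264, and 85.3 FPKM and RIP levels of 82.3, 38.7, 108, and 184 FPKM. SCARNA2 had ratios of -3.94, -3.47, -2.64, and 0.93. In both, SW1990 alone was above its line's median, and it had the lowest input level and the highest RIP level. SCARNA7 held no fragment in the RIP libraries of Hep3B, HCT116, and SW1990 and 4 in DU145, against 2521, 85, 129, and 564 fragments in the inputs of Hep3B, HCT116, SW1990, and DU145. With 3 fragments in place of 0, it was at least 813-fold lower per 1000000 fragments in the Hep3B RIP than in the Hep3B input. SNORD17, a C/D box small nucleolar RNA, had a ratio of -5.31 in Hep3B, against -1.53, 0.08, and -0.24 in HCT116, DU145, and SW1990. Hep3B was low for SNORD17, with the highest input level, 392 FPKM, and the lowest RIP level, 11.1 FPKM.

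Over the 17 RNAs of this class, Hep3B was the lowest line for 15 and SW1990 the highest for 14. Their levels ranged more widely over the inputs, with a median range of 3.98 in log2 FPKM, than over the RIP libraries, where it was 2.28, and the input range was the wider one for 12 of 17. Over all kept genes the order was the other way, with medians of 1.28 over inputs and 1.39 over RIP libraries, and the input range was wider for 42.2%.

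7SL RNA is the scaffold of the signal recognition particle, which docks on ribosomes that are making secreted proteins, so it is a small RNA of the cytoplasm and not of the nucleus. RN7SL1 (hg19 chr14:50043390-50081390, a locus with 7 listed genes) stood at 206166, 84434, 76831, and 6254 FPKM in the inputs of Hep3B, HCT116, DU145, and SW1990 and at 497, 909, 1275, and 227 FPKM in the RIP libraries. RN7SL2 stood at 115485, 80927, 63200, and 4825 FPKM in the inputs and at 239, 650, 1148, and 167 FPKM in the RIP libraries. Every RIP level was below every input level for both genes. The ratios of RN7SL1 were -8.97, -6.63, -6.04, and -4.94, and all 8 genes of the class had a spread of at least 4-fold, with Hep3B lowest for all 8 and SW1990 highest for 7. The input range was the wider one for 8 of 8. These genes are near-identical copies, so their fragments can be assigned among them in more than one way and the split between them is uncertain.

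The mitochondrially encoded RNAs encode subunits of the respiratory chain and are translated inside the mitochondrion on its own ribosomes. MT-ND3, a complex I subunit (hg19 chrM:10059-10404), stood at 887 FPKM in the Hep3B input, 50.6 in HCT116, 1064 in DU145, and 1276 in SW1990. In the RIP libraries it stood at 1.66, 5.71, and 41.7 FPKM in Hep3B, HCT116, and DU145, and no fragment was found in SW1990. The HCT116 input was the lowest of the 4 inputs and the DU145 RIP library the highest of the 4 RIP libraries. The ratios of -8.67, -3.04, -4.77, and -10.48 gave the widest spread of all kept genes, 7.44. It was 4.87 by CPM, and the SW1990 value rests on 0 of 38498759 RIP fragments against 5190 input fragments. With 3 fragments in place of 0, the RIP level in SW1990 was at least 1797-fold lower per 1000000 fragments than the input level.

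MT-ATP8, an ATP synthase subunit, had ratios of -5.47, -2.14, -4.65, and -7.85 in Hep3B, HCT116, DU145, and SW1990. SW1990 was the lowest line for 12 of the 13 mitochondrially encoded RNAs, and DU145 was the highest for 7 and HCT116 for 5. The median ratio of the 13 was -4.21 in HCT116, -4.26 in DU145, -5.47 in Hep3B, and -7.13 in SW1990, so that in every line they were far below the middle gene. They did not all spread alike. MT-CO3, a complex IV subunit, had ratios of -5.51, -5.87, -5.42, and -5.90, a spread of only 0.49. MT-CO1, of the same complex, was the exception in which Hep3B was highest, with ratios of -2.46, -4.37, -3.74, and -4.01. MT-CO3 and MT-ATP8 are listed at the same locus, where transcripts overlap. The median range over the 13 RNAs was 4.12 in log2 FPKM over the inputs and 4.08 over the RIP libraries, so both kinds of library varied, and the median input level ran from 212 FPKM in HCT116 to 3435 FPKM in SW1990.

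Most mRNAs of ribosomal proteins were below the median of each line, and by different amounts. Their median ratio was -1.24 in DU145, -1.35 in Hep3B, -2.21 in HCT116, and -2.82 in SW1990. Above the line's median were 14 of the 80 in DU145, 11 in Hep3B, 5 in HCT116, and 1 in SW1990. The median spread was 1.62, and 21 of 80 (26.2%) reached 4-fold, against 4.25% of all kept genes. SW1990 was the lowest line for 60 and HCT116 for 18, and DU145 was the highest for 45 and Hep3B for 34. Levels differed more over the inputs than over the RIP libraries. The median level of the 80 mRNAs was 606, 1445, 516, and 2768 FPKM in the inputs of Hep3B, HCT116, DU145, and SW1990 and 316, 273, 249.8, and 530 FPKM in the RIP libraries, and the input range was the wider one for 75 of 80 genes. Within each deposited table, the line with more ribosomal protein mRNA in the input had the lower ratio, HCT116 in one and SW1990 in the other. The input level is the denominator of the ratio, so this order is in part built in, and its source was not tested.

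RPS28 (hg19 chr19:8367011-8408146, a locus with 5 listed genes) had the widest spread of the 80. It stood at 750, 555, 446, and 2919 FPKM in the inputs of Hep3B, HCT116, DU145, and SW1990 and at 232, 64.4, 411, and 222 FPKM in the RIP libraries, which gave ratios of -1.97, -3.18, -0.24, and -3.87. SW1990 had the highest input level by far and an ordinary RIP level, and DU145 was nearly as high in the RIP library as in the input. RPS21 (hg19 chr20:60962172-60963576) had ratios of -2.42, -4.65, -1.25, and -3.50, with HCT116 lowest through its RIP level of 91.2 FPKM against 345 to 494 FPKM in the other lines. RPL28 had ratios of -1.58, -1.99, -0.03, and -2.93. At the narrow end, RPL14 had ratios of -1.77, -1.74, -1.63, and -1.92 although its input level ran from 122 to 609 FPKM. RPL30 was also narrow, with a spread of 0.57.

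The starts of ribosomal protein transcripts are shown because the pyrimidine run there, the 5′ terminal oligopyrimidine motif, is what couples their translation to mTOR. Each window below has 10 bases before the annotated start and 20 bases from it on, on the strand of the gene, from RefSeq promoters of GRCh38.p14, and capitals mark a run that begins with C at the start and goes on with C or T. The first 4 genes had the widest and the last 4 some of the narrowest spreads among ribosomal protein genes with a single promoter entry.
RPS28, chr19:8321486-8321515: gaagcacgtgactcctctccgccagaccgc
RPS21, chr20:62387093-62387122: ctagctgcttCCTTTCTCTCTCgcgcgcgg
RPL28, chr19:55385922-55385951: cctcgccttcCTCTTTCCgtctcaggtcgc
RPS26, chr12:56041908-56041937: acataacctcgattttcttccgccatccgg
RPL14, chr3:40457329-40457358: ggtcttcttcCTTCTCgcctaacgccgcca
RPL41, chr12:56116623-56116652: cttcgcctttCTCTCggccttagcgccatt
RPL31, chr2:101002279-101002308: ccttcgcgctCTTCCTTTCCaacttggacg
RPL4, chr15:66504836-66504865: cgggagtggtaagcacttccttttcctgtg
A run of at least 5 bases from the annotated start was held by 2 of the 4 wide genes and 3 of the 4 narrow. RPS28, RPS26, and RPL4 do not have C at that start, so the rule gave them no run. In their windows, stretches of C and T begin after the start. The run, a C at the start followed by at least 4 bases that are C or T, read on the strand of the gene only, was present in 41 of 53 ribosomal protein genes with a single entry (77.4%) and in 880 of 22114 such promoters in the table (3.98%). The 293 other kept genes with the run had a median spread of 0.89 and median ratios of 0.08, -0.02, -0.04, and 0.0050 in Hep3B, HCT116, DU145, and SW1990. The 5420 without it had a median spread of 0.88. Both sets were taken by letters alone, and the part of the run in the ratios was not tested. A match of letters at an annotated start is a description and does not show where transcription began in these cells.

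Among the 100 widest were also short mRNAs of other proteins. TPT1, which encodes the translationally controlled tumor protein, had ratios of -1.49, -3.15, -1.39, and -4.33 in Hep3B, HCT116, DU145, and SW1990, with input levels of 552, 2270, 674, and 7582 FPKM and RIP levels of 238, 273, 279, and 421 FPKM. SEC61G, a subunit of the translocon of the endoplasmic reticulum, had ratios of -2.90, -4.21, -1.09, and -3.07. TPT1 was low where its input, the denominator of the ratio, was high. SEC61G was lowest in HCT116, with a RIP level of 5.74 FPKM. Both were named after their values were seen. Of 31 kept pseudogenes of ribosomal proteins, 9 reached 4-fold and SW1990 was the lowest line for 25, but their sequence is close to that of the parent genes and fragments of one can be counted for the other.

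The canonical histone mRNAs end in a stem-loop in place of a poly(A) tail and are made in S phase. Of 40 kept histone cluster mRNAs, 26 (65.0%) reached 4-fold, and HCT116 was the lowest line for 39. Their median ratio was -0.89 in HCT116, 0.23 in Hep3B, 0.83 in DU145, and 0.90 in SW1990, so that they lay on opposite sides of the middle gene in different lines, and just 1 of the 40 had the same sign in all 4. HIST1H4C stood at 946, 1590, 149, and 500 FPKM in the inputs of Hep3B, HCT116, DU145, and SW1990 and at 453, 233, 205, and 372 FPKM in the RIP libraries. HCT116 had the highest input level and DU145 the lowest, and the ratios were -1.34, -2.86, 0.33, and -0.59. HIST1H4D had ratios of 0.18, -0.67, 1.69, and 2.44. The median level of the 40 was 565 FPKM in the HCT116 input against 163 to 268 FPKM in the other inputs, while the RIP medians of the 4 lines lay between 332 and 409.6 FPKM. The histone genes hold near-identical members, so values of single genes are uncertain where the authors' counting could split fragments.

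**Figure D3:**
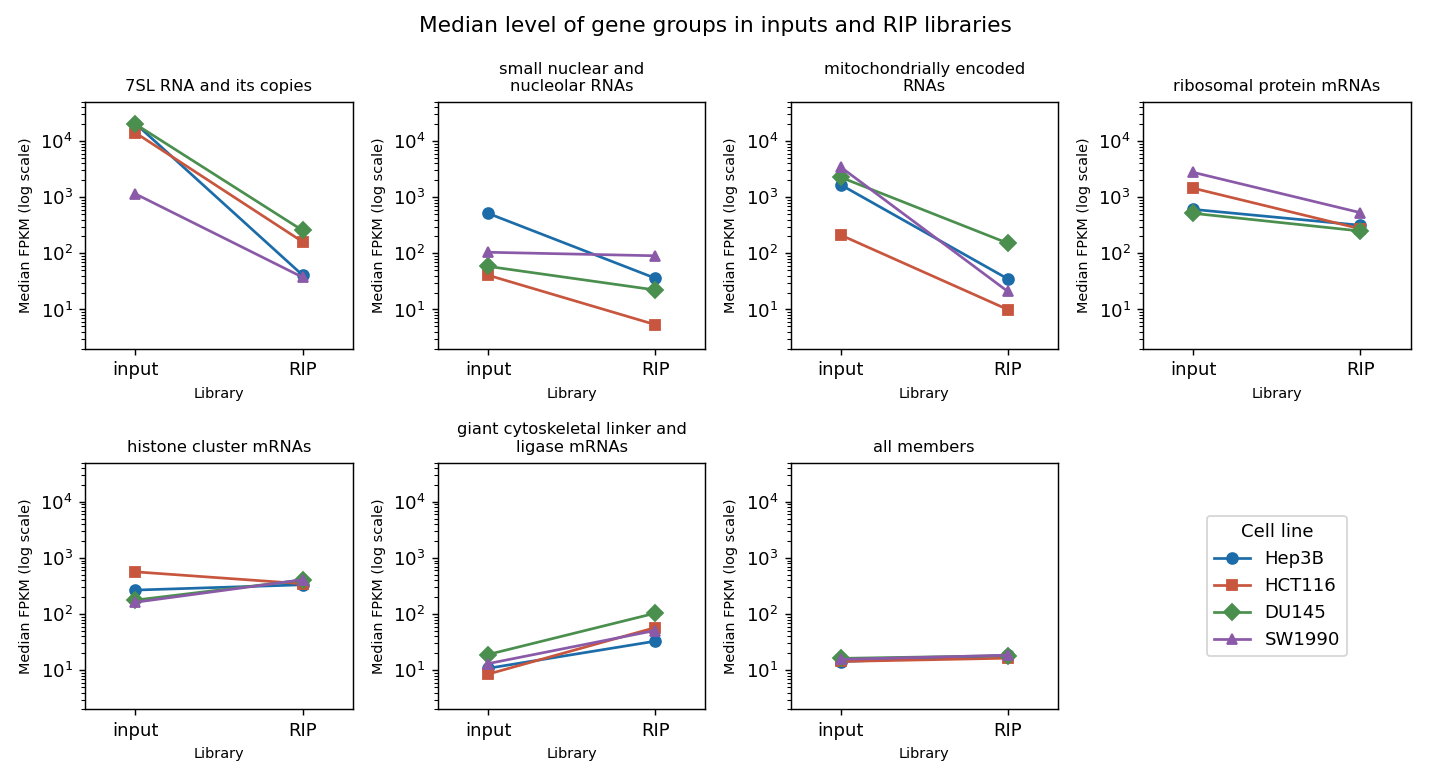
Median FPKM, on a log axis, of 6 gene groups and of all 11518 kept genes in the input and the RIP library of each line, with a line joining the 2 libraries of a cell line. The second panel holds 13 of the 17 small RNAs. The points of the histone and ribosomal protein mRNAs lie farther apart on the input side than on the RIP side, the median of all kept genes stays between 14.3 and 18.5 FPKM, and levels of Hep3B and HCT116 were normalized apart from those of DU145 and SW1990.

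At the upper end of the ratio, very long mRNAs were pulled down in every line but less so in Hep3B. A list of 29 kept mRNAs of giant cytoskeletal linkers and ubiquitin ligases was above the median of every line for all 29, with median ratios of 2.27 in HCT116, 2.26 in DU145, 1.96 in SW1990, and 1.06 in Hep3B. Hep3B was the lowest line for 27 of 29, and 7 (24.1%) reached 4-fold. PRKDC, the catalytic subunit of DNA-dependent protein kinase, stood at 48.4, 29.6, 37.5, and 87.6 FPKM in the inputs of Hep3B, HCT116, DU145, and SW1990 and at 113, 554, 174, and 407 FPKM in the RIP libraries. Its ratios were 0.92, 4.09, 2.06, and 2.04, with HCT116 highest and Hep3B lowest. HERC2, a giant ubiquitin ligase, had ratios of 1.47, 4.16, 2.61, and 1.94 in the same order. UTRN, which encodes utrophin, was at the narrow end of the list, with a spread of 0.46.

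HCT116 stood above the other lines for a few groups. Of 20 aminoacyl-tRNA synthetase mRNAs, whose enzymes load amino acids onto transfer RNAs, HCT116 was the highest line for 14 and Hep3B the lowest for 13, with median ratios of 0.43, 1.47, 0.82, and 1.14 in Hep3B, HCT116, DU145, and SW1990. EPRS, for glutamate and proline, had ratios of 0.12, 2.40, 0.51, and -0.21 through a RIP level of 159 FPKM in HCT116 against 36.8 to 41.2 FPKM in the other lines, while its inputs lay between 26.2 and 38.9 FPKM. Of 36 mRNAs of SR proteins and hnRNPs, which direct splicing, HCT116 was highest for 28, with a median ratio of -0.20 against -0.72 to -0.96 in the other lines. SRSF5 had ratios of -2.21, -0.54, -3.06, and -2.53 in Hep3B, HCT116, DU145, and SW1990, so that HCT116 was above the rest by more than the rest differed among themselves. DNA replication mRNAs were highest in HCT116 for 27 of 45 and heat shock protein mRNAs for 16 of 25, against 29.2% of all kept genes.

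Single mRNAs stood out in 1 line. MT2A, a metallothionein that binds zinc and copper, had a ratio of 1.35 in DU145 and -1.41, -2.14, and -1.77 in Hep3B, HCT116, and SW1990, with 404 FPKM in the DU145 RIP library against 145 FPKM in its input. SLC39A4, a zinc importer, had a ratio of 2.58 in Hep3B against 0.90 in DU145, -0.13 in HCT116, and -0.53 in SW1990, but its Hep3B input was low, at 2.46 FPKM and 97 fragments. FAM98B, a part of the tRNA ligase complex, had a ratio of -3.62 in DU145 against -1.68, -0.24, and -0.77 in Hep3B, HCT116, and SW1990. By counts its spread was 1.84, not 3.38, and DU145 at -2.76 lay close to Hep3B at -2.42, with HCT116 at -0.92 and SW1990 at -1.02. CEBPA, a transcription factor of liver and myeloid cells, had a ratio of -0.41 in DU145 and 1.93, 0.84, and 1.73 in Hep3B, HCT116, and SW1990, with input levels of 0.941, 18.1, 0.745, and 1.77 FPKM in DU145, Hep3B, HCT116, and SW1990.

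Medians of other groups lay closer together, and the median spread of their members was under that of all kept genes. Glycolysis enzyme mRNAs had median ratios of 1.35, 1.65, 1.21, and 1.34 in Hep3B, HCT116, DU145, and SW1990 and a median spread of 0.74, against 0.90 over all kept genes. PFKL, a phosphofructokinase subunit, had ratios of 1.97, 1.92, 1.90, and 1.89 although its input level ran from 12.1 to 43.7 FPKM. Its spread was 0.08 by FPKM and 0.45 by counts. Median ratios of proteasome subunit mRNAs differed by 0.17 between the lines and those of integrated stress response mRNAs by 0.42, while the median spreads of their members were 0.80 and 0.63. No gene of these 3 lists, of 18, 36, and 25 genes, reached 4-fold, which at 4.25% of all kept genes says little about lists of this size. CEBPG, of the latter list, was low throughout, with ratios of -2.17, -2.05, -2.20, and -2.18. Among all kept genes with a mean input of at least 10 FPKM, SLC15A4, a peptide and histidine transporter of endolysosomes, had the narrowest spread, 0.02, with ratios of 0.38, 0.36, 0.37, and 0.36, followed by KCTD3 and CLTA, the clathrin light chain A. The spread of SLC15A4 was 0.18 by counts, which is above the FPKM value and still far under the median gene.

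**Figure D4:**
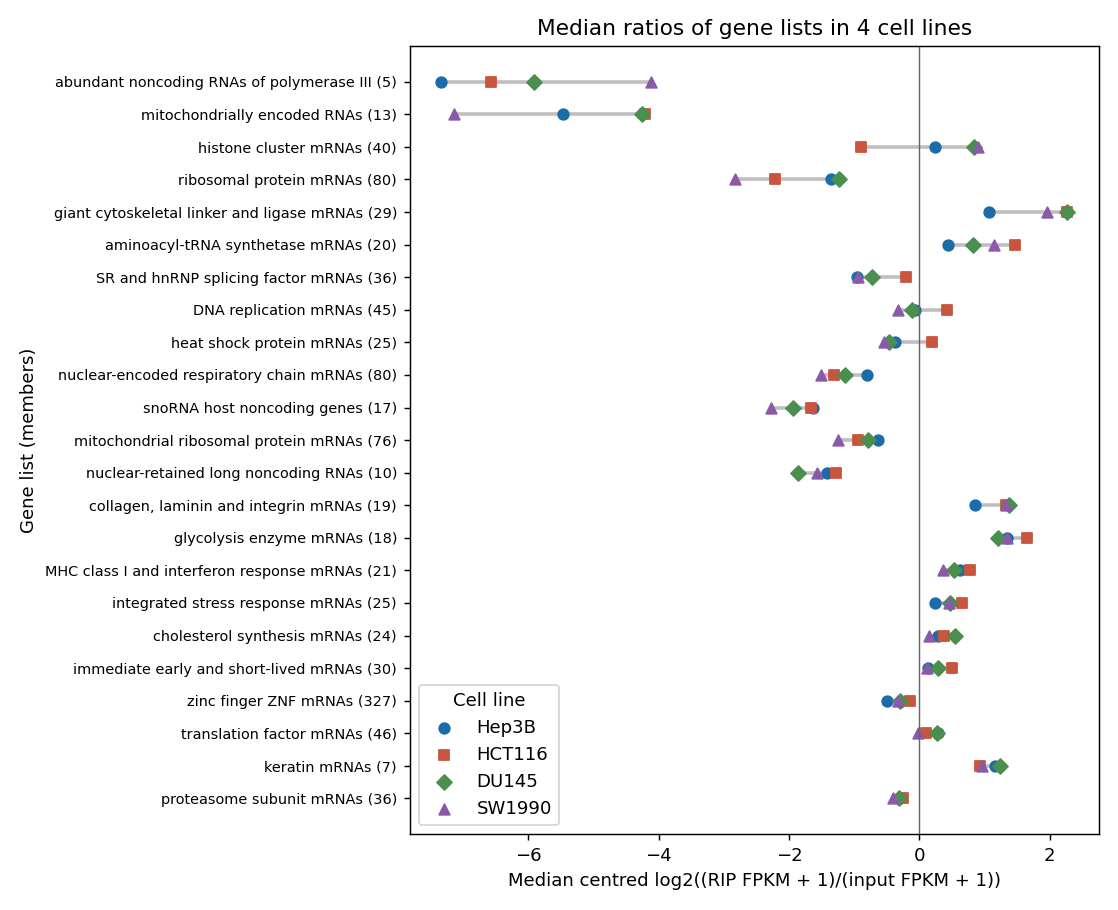
Median centred log2 ratio of RIP to input in each line for 23 gene lists with at least 5 kept members, the number in brackets, in order of the range of the 4 medians, which a grey bar marks. The lists of polymerase III RNAs, mitochondrially encoded RNAs, histone mRNAs, and ribosomal protein mRNAs have the widest ranges, and those of proteasome, keratin, and translation factor mRNAs the narrowest.

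Remaining lists lay between these. Nuclear-encoded respiratory chain mRNAs had median ratios of -0.80, -1.31, -1.14, and -1.51 in Hep3B, HCT116, DU145, and SW1990, and 2 of 80 reached 4-fold. Mitochondrial ribosomal protein mRNAs had -0.63, -0.95, -0.79, and -1.25, and 2 of 76 reached 4-fold, MRPL1 with ratios of -0.65, -1.80, -2.23, and -3.61 being the widest. In both lists SW1990 was the lowest line most often, for 32 and 39 genes, against 26.9% of all kept genes. Of the nuclear-retained long noncoding RNAs, NEAT1, the scaffold of paraspeckles, had ratios of -4.95, -2.65, -3.85, and -4.19, and MALAT1, of nuclear speckles, -2.03, -3.51, -3.22, and -1.73, so that HCT116 was the highest line for one and the lowest for the other. Zinc finger mRNAs named ZNF had median ratios of -0.50, -0.14, -0.29, and -0.33, with Hep3B lowest for 133 of 327, against 28.7% of all kept genes. The other lists, of translation factor, immediate early, cholesterol synthesis, snoRNA host, extracellular matrix, keratin, MHC class I and interferon, and liver secreted protein genes, had median spreads from 0.75 to 1.01.

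Effective length moved with the ratio in every line, and the spread was widest among the shortest genes. Genes were split into 5 groups of equal size by their deposited counts per FPKM in the inputs, which grows with the length of the transcript. The median ratio rose from -0.53 in the shortest group to 0.34 in the longest in Hep3B, from -0.83 to 0.57 in HCT116, from -0.68 to 0.54 in DU145, and from -0.95 to 0.68 in SW1990. The rise was smallest in Hep3B, 0.87, and largest in SW1990, 1.63, in the order of the width of the lines' ratios. Spearman's rho of ratio and this measure across genes was 0.27, 0.35, 0.32, and 0.38 in Hep3B, HCT116, DU145, and SW1990. A spread of at least 4-fold was found for 10.2% of the shortest group and for 2.43% to 3.52% of the others. The median spread was 1.05 in the shortest group, 0.83 in the next, and 0.92 in the longest, and Spearman's rho of spread and this measure was only -0.066, so the shortest group alone stood apart. The part of length in the differences between lines was not tested.

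**Figure D5:**
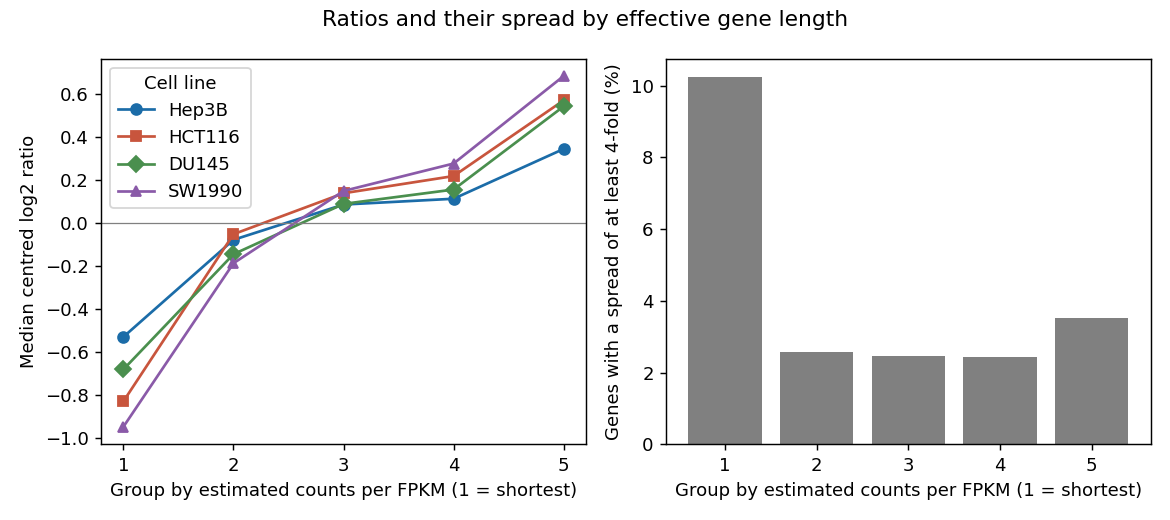
Left, median centred log2 ratio of RIP to input in each line by group of deposited counts per FPKM, from the shortest to the longest genes, and right, the percentage of genes with a spread of at least 4-fold in each, with 2303 or 2304 genes per group. The lines cross near the middle group, SW1990 has the steepest course and Hep3B the flattest, and the shortest group holds 10.2% of genes at 4-fold.

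Depth of the inputs had a weaker relation to the spread. With genes split in 5 groups of equal size by their fragments in the lowest of the 4 inputs, a spread of at least 4-fold was found for 6.34% of the shallowest group, with a median of 124 fragments, and for 4.04%, 3.43%, 2.56%, and 4.86% of the next groups up to the deepest, with a median of 3480 fragments. The share was highest in the shallowest group and next highest in the deepest. RMRP, 4 of the 8 genes of the 7SL class, and 79 of 80 ribosomal protein mRNAs were in the deepest group. RN7SL396P and RN7SL128P were in the shallowest, with 1 and 2 RIP fragments in their lowest library, so their ratios rest on few fragments. When genes were split by the lowest of all 8 libraries instead, the share at 4-fold was 8.59% in the shallowest group. It was 4.04%, 2.43%, 2.65%, and 3.52% in the next groups. The median spread of that shallowest group was 1.04, near the 1.05 of the shortest genes. RIP fragments enter both this split and the ratio, so split and spread are not independent.

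A test over the 4 lines as pairs gives the background for the direction that lines share. With edgeR's quasi-likelihood test, the cell line as a block, and a Benjamini-Hochberg adjusted p threshold of 0.05, 26.5% of 19921 tested genes were higher in RIP and 24.9% lower. Of the kept genes, 35% were higher and 34.4% lower, and of the 100 widest, 10 were higher and 58 lower. Of the lists, 59 of 80 ribosomal protein mRNAs were lower and 1 was higher, 13 of 13 mitochondrially encoded RNAs were lower, 11 of 40 histone cluster mRNAs were higher, 28 of 29 giant linker and ligase mRNAs were higher, and 17 of 18 glycolysis enzyme mRNAs were higher. These calls rest on the same RIP and input values as the ratios, so nothing is read from them about the spread. RMRP passed the threshold (log2 fold change -3.36, SE 0.96, edgeR adjusted p = 0.0138) although it was not low in SW1990, and HIST1H4C did not (-0.98, SE 0.43, edgeR adjusted p = 0.0819).

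The labels give a single split of the lines, by whether a title names the line first (Hep3B and HCT116) or last (DU145 and SW1990), and this is also the split into the 2 deposited tables. In edgeR's test of the interaction of RIP with this split, 0% of 19921 genes had a higher and 0.00502% a lower ratio in the second pair of lines at an adjusted p of 0.05, which is 0 and 1 gene, with 453 genes at an unadjusted p of 0.05. DESeq2 called 7 and 4, and limma on log2(FPKM + 1) called 0 and 0. None of the 100 widest genes was called by edgeR. The single gene called was ISY1-RAB43, a readthrough gene that was not among the kept genes, and title pattern, table, and cell line cannot be told apart in this split.

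The edge of the 100 widest was gradual. The last genes inside were AC079250.1 and DLGAP1-AS1, both with a spread of 2.71, and the first outside were NDUFAF4, an assembly factor of complex I, and HIST1H2BJ, both at 2.70. At the edge of the count minimum, XK and MID2 were just inside with a lowest input count of 50.01.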

How the data were processed

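RIP and input RNA of 4 cell lines were sequenced from libraries made with a TruSeq Stranded Total RNA kit. The submitters' processing notes name CASAVA 1.8, TopHat2 2.0.9, and hg19. The tool that counted fragments, its annotation, its strand setting, and its filters are not given in the sources used here. In 2 tables, the authors deposited FPKM per gene, normalized for length and depth. Beside it the authors deposited an estimated count, which is scaled by 1 factor per library, can be divided among overlapping genes, and is not always whole. Dividing by that factor gave whole fragments, within 0.01, for 89.1% to 92.2% of values, and these fragments gave depth, counting errors, and a floor of 3 fragments. Counting error covers fragments only, which are not independent molecules. The authors' own fold changes, p-values, and q-values in the same tables, each for 1 library against 1 library, were not used, and no column per sample was left unmapped.

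Ratios were taken on the log2(FPKM + 1) scale, which understates the change of low genes, and centred per line on the median of genes with a count of at least 50 in all 4 inputs. Estimated counts were rounded and tested with edgeR 4.0.16 in R 4.3.3 (quasi-likelihood, TMM, mean count of at least 10 per gene, cell line as a block, since a line's RIP and input come from the same lysate). Raw counts had been foreseen in the design. DESeq2 1.42.0 and limma 3.58.1 were alternatives. Simulated counts held planted 4-fold changes and 1 fixed dispersion for all genes. On them, edgeR recovered 184 of 191 changed genes with 7 false calls among 191 for RIP against input. For the interaction with the title pattern it recovered 93 of 195, with 6 false calls among 99. These shares need not carry over to the deposited data, where dispersion differs between genes.

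Members, gene lists, tests, and the rule for named genes were chosen with earlier results of these data known. Named are the 20 widest genes, for each line the 4 most positive and 4 most negative deviations from the other lines, the 8 narrowest with a mean input of at least 10 FPKM, the 2 widest and 2 narrowest of each list with its defining genes, and 2 genes on either side of the edge of the 100 widest. The text gives a selection of these, and gives at most 2 clone-named genes. Names that RefSeq lists as pseudogenes were taken out of lists drawn by name pattern after members were seen. RefSeq names of GRCh38.p14 were matched by symbol, Ensembl identifier, or synonym. The rest was done in Python 3.11.15 with matplotlib 3.10.9, pandas 2.3.3, and NumPy 2.4.6.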

Additional observations from a re-analysis of the deposited data

Results flagged for a closer look

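Among 44 sets of 4 line values (20 single genes and 24 list medians), 1 had a line far from the other 3. The median ratio of 19 collagen, laminin, and integrin mRNAs was 0.86 in Hep3B, against 1.34 in HCT116, 1.37 in DU145, and 1.33 in SW1990, so that the gap below the other lines was 0.907 of the whole range. By CPM the medians were 0.92, 1.74, 1.44, and 1.68 in the same order of lines, and the gap was 0.631 of the range, under the limit of 0.829 for setting a line apart. Chance alone sets about 1 in 20 such groups apart.

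The RIP to input ratio of ISY1-RAB43 differed between the lines named first and last in the titles (edgeR interaction, adjusted p = 0.0266). It had 5.98 input and 315 RIP fragments in Hep3B, under 3 input and 81.8 RIP fragments in HCT116, 373 input and under 3 RIP fragments in DU145, and 277 input and under 3 RIP fragments in SW1990. The gene joins and overlaps ISY1 and RAB43, so fragments can be split between the 3, and its values are uncertain.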

How the results depend on the processing

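The median correlation between lines stayed between 0.829 and 0.883 under every alternative run except CPM, where it was 0.894. It was 0.830 to 0.871 when 1 line was left out. The median spread was 0.98 with a pseudocount of 0.1, 0.60 with 10, 0.84 by CPM, and 0.68 to 0.79 without 1 line, which leaves fewer values to range over. Genes at 4-fold numbered 933 with a pseudocount of 0.1, 164 with 10, 767 with a minimum of 10 counts, 265 with a minimum of 500, and 258 to 387 without 1 line. In 2 alternatives chosen after seeing the data, genes with a locus of their own gave 175 at 4-fold (4.98% of 3512), and protein-coding genes with at least 500 counts in all 8 libraries gave 154 (2.83% of 5437) and a median spread of 0.84. With no replicate block, that is without pairing RIP and input by cell line, 1427 genes were higher and 1344 lower, against 5282 and 4960 with the block. DESeq2 size factors, DESeq2, limma, no filter, and leaving out a line kept both counts within 1.5 times, at 4448 to 5664 higher and 3660 to 5629 lower. For the interaction with the title pattern, no filter on low counts gave 15 higher and 19 lower, DESeq2 7 and 4, and leaving out 1 line 0 to 17 and 0 to 22. With no replicate block, with a count of at least 50 in all 4 inputs, and with limma, 0 genes were lower, with 80, 212, and 561 genes at an unadjusted p of 0.05. Depth limits single small RNAs in RIP libraries, where SCARNA7 held at most 4 fragments. The causes of these changes were not tested.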
